A study of Sorghum propinquum with 2 samples.

Results

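The genes described here are 5 light and clock genes of sorghum, chosen by their locus IDs: the photoreceptors phytochrome B (Sb01g037340) and phytochrome C (Sb01g007850), and the clock genes TOC1 (Sb04g026190), GIGANTEA (Sb03g003650) and LHY (Sb07g003870). All 5 were among the 24371 genes listed for the rhizome and the shoot of *Sorghum propinquum*, a wild relative of grain sorghum. The tables pair no ID with a name, so the names are those by which these loci are known in sorghum and were not checked against sequence. By the ID, phytochromes B and C lie on chromosome 1, GIGANTEA on chromosome 3, TOC1 on chromosome 4 and LHY on chromosome 7. Their positions and exons were not analysed here, and neighbouring loci are known only by ID order.

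Both groups came from a greenhouse-grown vegetative clone of an unnamed accession with many tillers and strong rhizomes, sampled at active tillering, when the plant forms side shoots. The rhizome, a stem that grows underground, gave 1 library, and the shoot gave 1 library. The labels give no hour of harvest, day length, light regime or number of plants, and do not say whether the organs were taken at the same hour. They name whole organs, so fewer cells of a type and less RNA per cell cannot be told apart. The organ labels could not be checked against marker genes, which the tables do not name.

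Phytochromes are receptors of red and far-red light that switch between an active and an inactive form. In sorghum, phytochrome B is the product of the maturity locus Ma3 and phytochrome C that of Ma5, and both delay flowering in long days. The plant clock, known best from *Arabidopsis*, is a loop of genes that repress each other at different times of the day. There, the MYB factor LHY is made around dawn and represses evening genes, the pseudo-response regulator TOC1 is made around dusk and represses LHY, and GIGANTEA is made late in the day, stabilises a blue-light F-box protein and promotes flowering through CONSTANS.

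LHY, the morning gene, had 2.47 times the level in the shoot that it had in the rhizome. The other 4 genes differed less between the libraries: GIGANTEA was 1.20-fold higher in the shoot, TOC1 and phytochrome C were within counting error of equal when scaled by library totals, and phytochrome B was 1.17-fold higher in the rhizome. GIGANTEA was the most abundant of the 5 in both organs. The order of LHY and TOC1 in RPKM (reads per 1000 bases of deposited gene length and per 1000000 reads) differed between the organs.

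The counts behind these levels were high. Reads in genes numbered 16862624 for the rhizome and 17153968 for the shoot, with medians of 167 and 177 reads per listed gene. The 5 genes had 2003 to 15584 reads in the rhizome and 2109 to 18954 in the shoot, or 0.177% and 0.216% of the reads. Intervals below are exact 95% intervals and cover counting error only. With 1 library per organ there is no spread between samples, so no p-value is given and the differences have no replicate check. Across the 16710 genes with at least 1 RPKM in both libraries, the median log2 ratio of rhizome to shoot was 0.22, a 1.17-fold difference, which scaling to a median of 1 would remove. Each gene is therefore also given relative to this median.

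**Figure D1:**
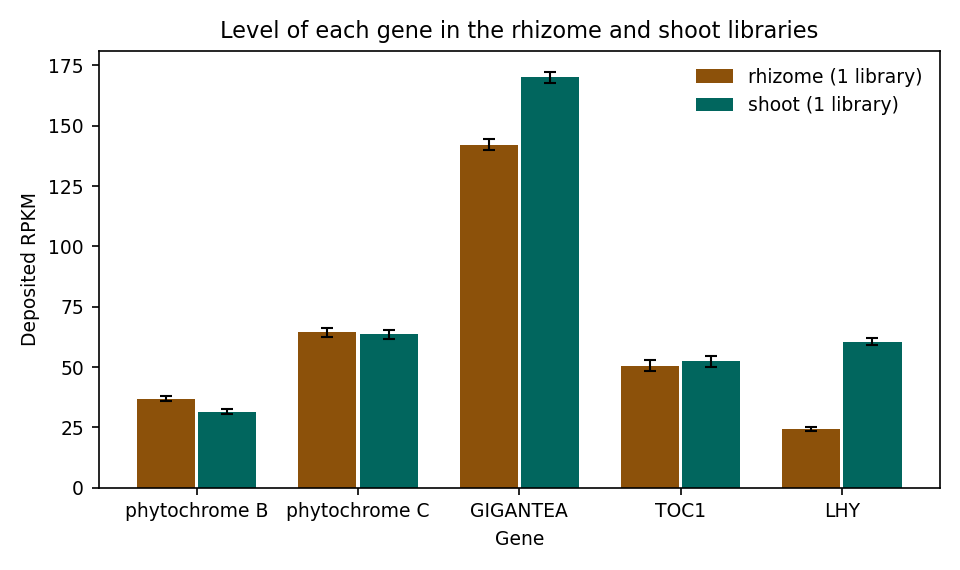
Deposited RPKM (y axis) of the 5 genes (x axis) in the rhizome library (brown) and the shoot library (green), 1 library each. Error bars are exact Poisson 95% intervals of the read counts. GIGANTEA is the tallest pair at 142 and 170 RPKM, and LHY is the pair with the widest gap relative to its level, at 24.5 and 60.5 RPKM.

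Of the photoreceptors, phytochrome B had the lower RPKM in both organs. It had 4542 reads and 37.0 RPKM (interval 35.9 to 38.1) in the rhizome library and 3934 reads and 31.5 RPKM (30.5 to 32.5) in the shoot. The rhizome value was the higher, by 1.17-fold (1.13 to 1.23), which is the median difference of all shared genes. Relative to that median the ratio was 1.01. Of the 12826 genes that reached 5 RPKM in one organ or both, 51.4% had a lower ratio of rhizome to shoot than phytochrome B.

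Phytochrome C had nearly the same level in the underground stem and in the shoot. Its 4804 reads in the rhizome library gave 64.4 RPKM (62.6 to 66.3), and its 4820 reads in the shoot library gave 63.5 RPKM (61.7 to 65.3). The ratio of rhizome to shoot was 1.01 (0.974 to 1.06), so no difference was detectable beyond counting error in the values as deposited. Relative to the median of all shared genes, phytochrome C was 1.15-fold higher in the shoot, so its direction depends on the scaling.

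Phytochrome C was above phytochrome B in RPKM in both organs. Per deposited length it was 1.74-fold higher than phytochrome B in the rhizome (1.67 to 1.81) and 2.02-fold higher in the shoot (1.93 to 2.11). In reads, phytochrome B had 0.945 times as many as phytochrome C in the rhizome and 0.816 times as many in the shoot, so most of the gap in RPKM follows from their deposited lengths of 7286 and 4423 bases. The ratio of B to C was 1.16-fold higher in the rhizome than in the shoot (1.09 to 1.23). Lengths and library totals cancel in this last value.

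Of the evening genes, GIGANTEA ranked among the abundant transcripts of both organs. It had 15584 reads and 142 RPKM (140 to 144) in the rhizome library, where 1.83% of listed genes were above it. In the shoot library it had 18954 reads and 170 RPKM (168 to 172), and 1.80% of listed genes were above it. The shoot value was higher by 1.20-fold (1.17 to 1.22), and by 1.39-fold relative to the median of all shared genes. The intervals of the 2 levels did not overlap.

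TOC1 differed little between the organs. Its 2003 reads in the rhizome library gave 50.6 RPKM (48.4 to 52.9), and its 2109 reads in the shoot library gave 52.4 RPKM (50.2 to 54.7). The shoot value was 1.04-fold higher, with an interval of 0.973 to 1.10 that includes a ratio of 1. Relative to the median of all shared genes it was 1.21-fold higher in the shoot.

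LHY, the morning gene of the set, was the one with a large difference. It had 2851 reads and 24.5 RPKM (23.6 to 25.4) in the rhizome library. In the shoot library it had 7161 reads and 60.5 RPKM (59.1 to 61.9). The shoot level was 2.47-fold higher (2.36 to 2.58), and 2.88-fold higher relative to the median of all shared genes. In the rhizome library 13.98% of listed genes had a higher RPKM than LHY, against 5.49% in the shoot library.

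At a threshold of 2-fold with at least 5 RPKM in the higher library, LHY was the 1 gene of the 5 called higher in the shoot, where 16.8% of the 12826 genes at that level were called in the same direction. None of the 5 (0) was called higher in the rhizome, against 11.0% of those genes. A count of 1 in 5 is near this background, so it is no result about the 5 genes as a group. LHY passed also with its whole interval beyond 2-fold, as did 14.2% of the genes in that direction, with 0 of the 5 against 6.56% of all in the other direction. At 4-fold 0 of the 5 were called, against 9.02% of all higher in the shoot and 1.80% higher in the rhizome. At 1.5-fold, LHY was again the 1 gene called higher in the shoot (23.3% of all) and 0 were called higher in the rhizome (28.0% of all). The other 4 genes were less than 1.5-fold apart, as were 48.6% of all. The median log2 ratio of rhizome to shoot was -0.05 over the 5 genes and 0.20 over the 12826.

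Deposited length bears on this background, since long genes were called less often. When all listed genes were divided by deposited length into 5 classes of 20%, LHY, GIGANTEA and both phytochromes fell in the longest (4381 bases and more) and TOC1 in the middle one. In the longest class, 9.02% of the 2582 genes with at least 5 RPKM were called 2-fold higher in the shoot and 6.82% higher in the rhizome. There, 5.81% of the genes had a lower ratio of rhizome to shoot than LHY, against 13.6% over all lengths. For GIGANTEA the shares were 20.9% and 31.0%. In the class of TOC1, 37.2% of the genes had a lower ratio than TOC1. Level gave a different background from length. LHY, TOC1 and both phytochromes had 20 to 100 RPKM in the higher library. Of the 4244 genes at that level, 17.2% were called 2-fold higher in the shoot and 9.43% higher in the rhizome. At 100 to 500 RPKM, where GIGANTEA lies, the shares of 823 genes were 26.4% and 10.8%.

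**Figure D2:**
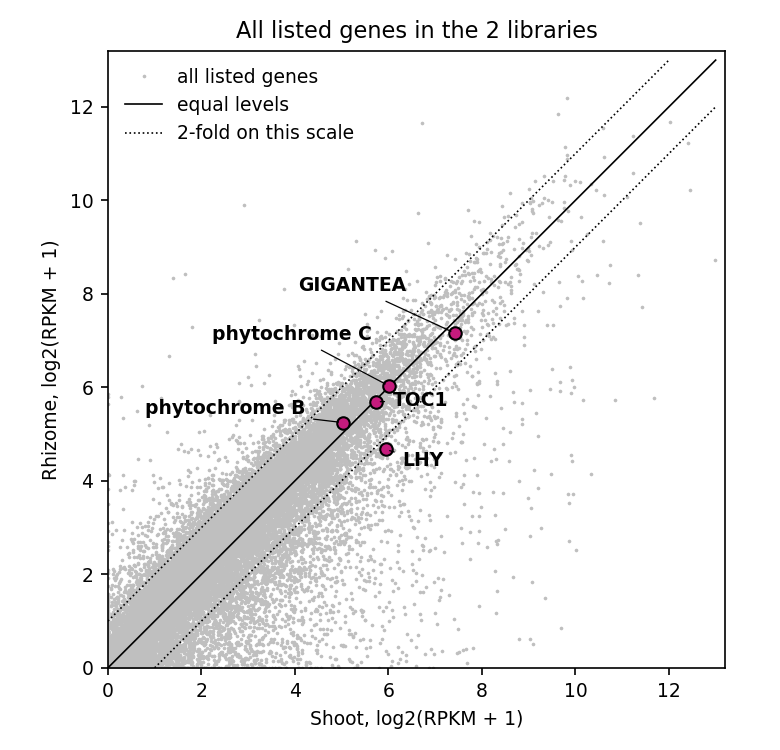
Level of every listed gene in the shoot library (x axis) and the rhizome library (y axis), both as log2(RPKM + 1), with the 5 genes in pink, the line of equal levels and dotted lines 2-fold apart on this scale. LHY lies below the lower dotted line, at 60.5 RPKM in the shoot and 24.5 in the rhizome, and the other 4 genes lie between the lines.

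The locus before LHY in ID order was a very abundant transcript with a larger difference in the same direction. Its reads numbered 11515 in the rhizome and 55918 in the shoot, or 241 and 1152 RPKM, which was 4.77-fold higher in the shoot. The next listed locus after LHY had 466 and 462 reads, a ratio of rhizome to shoot of 1.03 (0.900 to 1.17). Whether the transcripts of the first locus overlap LHY, and whether reads of one were counted for the other, was not tested, since the tables hold no positions and whether strand was used in counting is not given in the sources used here. These loci were looked at after the values of LHY were seen. The loci next to the other 4 genes had 0 to 568 reads per library, fewer than the genes themselves.

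Within each organ, the morning gene was set against the evening genes. In the rhizome library LHY was at 0.484 times the level of TOC1 (0.457 to 0.513), so TOC1 was 2.07-fold higher. In the shoot library LHY was at 1.15 times the level of TOC1 (1.10 to 1.21). LHY was thus below TOC1 in the rhizome and above it in the shoot, as levels in RPKM. In reads, LHY had 1.42 times as many as TOC1 in the rhizome and 3.40 times as many in the shoot. The order therefore differs between the organs only as long as the counted length of LHY is between 1.42 and 3.40 times that of TOC1. The deposited lengths of 6905 and 2347 bases stand at 2.94. Whether these are lengths of transcripts or of whole loci was not tested, and the ratio of the transcript lengths is not known here. Outside that range the order would be the same in both organs.

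GIGANTEA was above LHY in both organs, by more in the rhizome. LHY was at 0.172 times the level of GIGANTEA in the rhizome library (0.165 to 0.179), and at 0.356 times in the shoot library (0.346 to 0.365). The evening genes kept a more similar proportion to each other: GIGANTEA was 2.81-fold above TOC1 in the rhizome (2.68 to 2.94) and 3.25-fold above it in the shoot (3.10 to 3.40).

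The change in these proportions from rhizome to shoot needs neither lengths nor library totals. The ratio of LHY to TOC1 was 2.39-fold higher in the shoot than in the rhizome (2.21 to 2.57). The ratio of LHY to GIGANTEA was 2.07-fold higher in the shoot (1.97 to 2.17). Against the photoreceptors the ratios of LHY were 2.90-fold higher in the shoot for phytochrome B (2.73 to 3.08) and 2.50-fold higher for phytochrome C (2.36 to 2.66). Each of these values is the fold of LHY divided by that of its partner, so the 4 pairs restate the difference in LHY and are not separate evidence for it.

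The 6 pairs without LHY moved less. The ratio of GIGANTEA to phytochrome B was 1.40-fold higher in the shoot (1.34 to 1.47), that of GIGANTEA to phytochrome C 1.21-fold (1.16 to 1.27), and that of GIGANTEA to TOC1 1.16-fold (1.08 to 1.23). For TOC1 the ratio to phytochrome B was 1.22-fold higher in the shoot (1.13 to 1.31). The ratio of TOC1 to phytochrome C was 1.05-fold higher, with an interval of 0.975 to 1.13 that includes 1. The interval excluded 1 for 9 of the 10 pairs, which says that the reads of these libraries differ beyond counting error and not that the organs do in general. All 10 values are quotients of the folds of the same genes, so the pairs are not separate results.

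**Figure D3:**
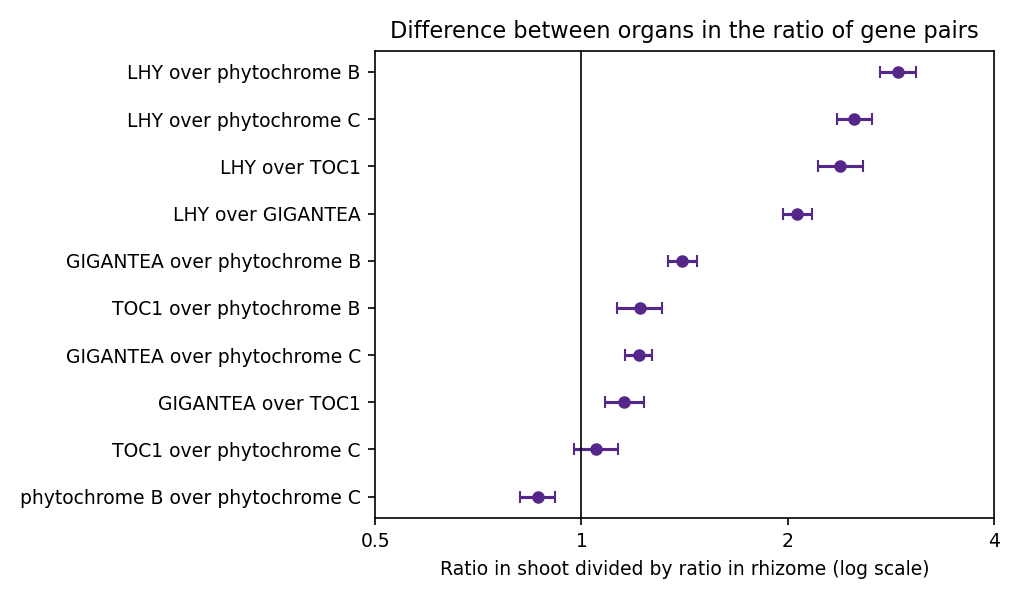
Ratio of each pair of genes in the shoot library divided by the same ratio in the rhizome library (x axis, log scale) for the 10 pairs (y axis), with exact conditional 95% intervals for counting error. The 4 pairs with LHY lie at 2.07 to 2.90 and the 6 pairs without it at 0.863 to 1.40.

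In order of level, the rhizome library ran from GIGANTEA (142 RPKM) through phytochrome C (64.4), TOC1 (50.6) and phytochrome B (37.0) to LHY (24.5). Each neighbour in that order differed from the next beyond counting error, the closest being phytochrome C at 1.27-fold above TOC1 (1.21 to 1.34). The shoot library ran from GIGANTEA (170 RPKM) through phytochrome C (63.5), LHY (60.5) and TOC1 (52.4) to phytochrome B (31.5). Here the closest neighbours were phytochrome C and LHY, 1.05-fold apart (1.01 to 1.09). LHY was thus last of the 5 in the rhizome and in the third place in the shoot, and the order of the other 4 genes was the same in both libraries. All these orders rest on the deposited lengths.

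LHY, GIGANTEA and TOC1 were on the shoot side under all 4 scalings. This was fixed in advance, since each alternative to library totals moves every gene toward the shoot. The log2 shifts were -0.22 for median-of-ratios scaling, -0.17 for TMM scaling and -0.02 without the 100 most abundant genes. Median-of-ratios scaling also repeats the values given above relative to the median of all shared genes. The intervals of TOC1 and phytochrome C included equal levels under library totals, with or without the 100 most abundant genes of each library. They lay wholly on the shoot side under the other 2 scalings. Phytochrome C went from a log2 ratio of rhizome to shoot of 0.02 under library totals to -0.20 under median-of-ratios scaling and -0.15 under TMM scaling, a trimmed mean of the gene ratios. Phytochrome B was higher in the rhizome under all 4, with a log2 ratio of 0.23 that fell to 0.01 and 0.06 under the same 2 scalings, where its interval included equal levels. The log2 ratio of LHY was -1.30 under library totals and -1.53 and -1.48 under these 2.

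**Figure D4:**
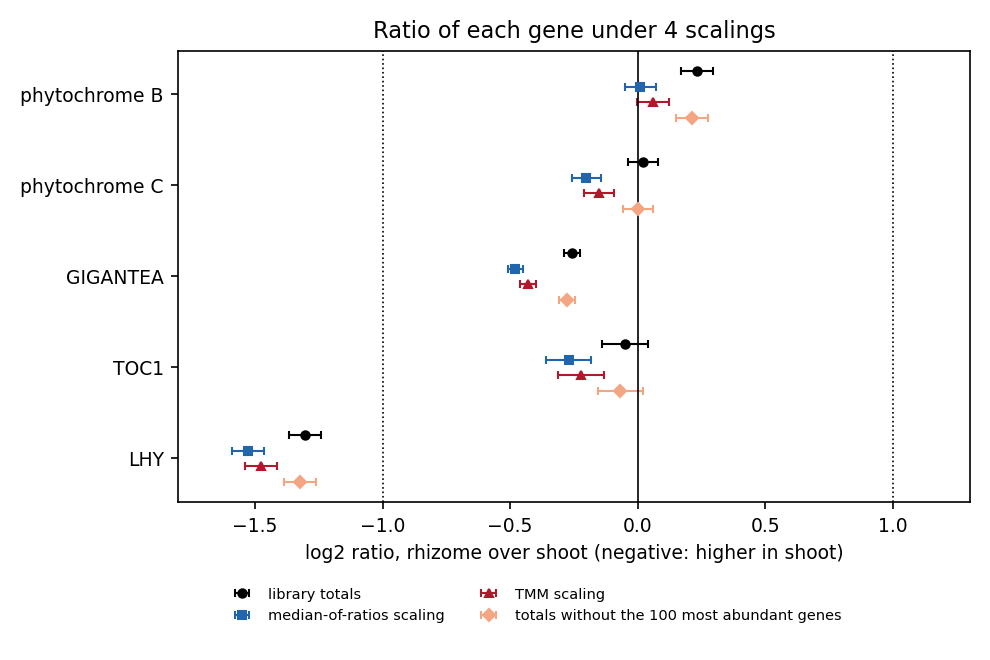
Log2 ratio of rhizome to shoot (x axis) for the 5 genes (y axis) under 4 scalings of the libraries, with exact 95% counting intervals, a solid line at equal levels and dotted lines at 2-fold. LHY lies beyond 2-fold on the shoot side under each scaling, from -1.30 to -1.53, and phytochrome C crosses the line of equal levels.

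Other genes had levels like these in both libraries. Likeness was measured as the distance between points on the log2(RPKM + 1) scale over the 2 libraries, which are too few to define a pattern. Within a distance of 0.1 there were 36 genes around phytochrome B, 18 around TOC1, 12 around phytochrome C, 4 around GIGANTEA and 2 around LHY. The nearest to TOC1 was Sb02g039020, at a distance of 0.0019, with 50.6 RPKM in the rhizome and 52.3 in the shoot. The nearest to phytochrome C was Sb10g031160, at 0.022, with 64.0 and 64.4 RPKM. The nearest to phytochrome B was Sb02g038900, at 0.023, with 37.5 RPKM in the rhizome and 31.2 in the shoot. The nearest genes to GIGANTEA and LHY lay at 0.023 and 0.053. The tables give these IDs no names.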

How the data were processed

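Total RNA (TRIzol, per the labels' protocols) of 1 rhizome and 1 shoot sample was sequenced on Illumina libraries. The deposited counts are whole reads per gene. The RPKM deposited by the authors were recomputed from counts, lengths and count totals and differed by less than 1e-06. Aligner, counting program, build, annotation, strand and the measure of length were not given in the sources used here. Near-identical or overlapping genes could share reads. Deposited lengths ran from 124 to 89248 bases, with a median of 2369. Whether they are lengths of transcripts or of whole loci was not tested, so RPKM of different genes may not compare transcript levels.

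Library ratios were scaled by count totals with exact conditional binomial (Clopper-Pearson) 95% intervals, and ratios of gene pairs between organs have exact conditional odds-ratio intervals. Reads may not be independent molecules. A count model has no replicates to work on, so genes were called at 2-fold with at least 5 RPKM in the higher library. The genes and rules were chosen with earlier results of these data known. Named are the 5 genes and, of the genes nearest to them, those at the smallest distance, up to 2 unnamed IDs per direction; for GIGANTEA and LHY the distance alone is given. Lists of other clock, light and green-tissue genes, set as patterns on product names, stayed empty (0 filled), since no source used here pairs IDs with names. Alternatives were other thresholds, a pseudocount of 1 RPKM, reads without length, and median-of-ratios and TMM scaling (R 4.3.3, edgeR 4.0.16). A further scaling used totals without the 100 most abundant genes of each library, left out of both. Code ran in Python 3.11.15 with scipy 1.17.1, pandas 2.3.3, numpy 2.4.6 and matplotlib 3.10.9. It was tested on simulated Poisson counts with differences set only as higher in the rhizome. Differences set as higher in the shoot and the intervals of gene pairs were not tested in this way.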

Additional observations from a re-analysis of the deposited data

How the results depend on the processing

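Scaling moved the log2 ratio of rhizome to shoot beyond counting error for all 5 genes. Under median-of-ratios scaling it was 0.010 for phytochrome B, -0.20 for phytochrome C, -0.27 for TOC1, -0.48 for GIGANTEA and -1.53 for LHY. Under TMM scaling the values were 0.060, -0.15, -0.22, -0.43 and -1.48 in the same order. These shifts of -0.22 and -0.17 apply to every gene alike. Totals without the 100 most abundant genes of each library shifted each ratio by -0.02, within counting error. The pseudocount kept all 23 values it was applied to within their counting error. The count of genes called higher in the shoot was 1 under 7 of the 8 alternatives and 0 at 4-fold, and that called higher in the rhizome was 0 under all 8. In reads not divided by length, the ratio of LHY to TOC1 in the rhizome turned from 0.484 to 1.42, and in the shoot it was 3.40. In such reads LHY to GIGANTEA was 0.183 in the rhizome and 0.378 in the shoot, GIGANTEA to TOC1 was 7.78 and 8.99, and phytochrome B to C was 0.945 and 0.816. Coding lengths and the alternatives for the pathway lists were not run, since no reference table was used. No paired analysis was possible because a single library stands for each organ, and nothing could be left out in turn. At this depth, the counting intervals of TOC1 and phytochrome C under library totals included a ratio of 1. Variation between plants and between hours of harvest was not measured.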
